A study of Mus musculus with 5 samples.

Results

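The mouse genes of microtubules and their motors, 60 in number, were followed in Erbb2-transfected NIH3T3 fibroblasts against the parental NIH3T3 line. They were chosen by gene symbol: tubulins, kinesin heavy and light chains, cytoplasmic and axonemal dynein chains, dynein light chains, dynactin subunits and end-binding proteins, from probes that the platform annotation gives exactly 1 symbol. Tubb5, Kif2c, Kif11, Kif20a and Kif23 were left out by the rule. The 60 genes were among 9669 genes with such a probe on the array and had 78 probes.

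Microtubules are hollow polymers of alpha- and beta-tubulin, and gamma-tubulin nucleates them at the centrosome. Most kinesins move cargo, chromosomes or vesicles towards the plus end, while cytoplasmic dynein, which works with the dynactin complex, moves cargo towards the minus end. Axonemal dyneins drive the beating of motile cilia and flagella, dynein-2 carries cargo back down the cilium, and end-binding proteins track growing plus ends. In fibroblasts these proteins shape the interphase array, the spindle and a single primary cilium, which does not beat.

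RNA from both cell lines was hybridised to each of 5 spotted cDNA arrays, in different dyes. The transfected cells carried the human HER-2/NEU (ERBB2) gene, constitutively overexpressed from a CMV promoter; the untransfected parental line NIH3T3 came from ATCC. Both lines were kept in the same serum-containing medium, and the labels do not say whether the transfected line is 1 clone. Arrays A1, A2 and A3 carried preparation A, and B1 and B2 preparation B. Erbb2 cDNA was in Cy5 on A3 and B2 and in Cy3 on A1, A2 and B1. The labels do not say whether preparations came from separate cultures, so p-values may measure technical spread only, and 2 preparations limit the precision of every value. In RNA of a whole culture, fewer cells holding a transcript and less RNA per cell cannot be told apart.

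Each value is a log2 ratio with Erbb2-transfected cells on top and NIH3T3 below. Its direction is likely, not settled: no source used here names the numerator dye. Since the labels list Cy5 as channel 1, Cy5 over Cy3 was assumed, and under the opposite reading every sign turns. A gene was tested where both preparations had values in both dye orientations. The ratio was averaged over arrays of 1 orientation, then over orientations. The 2 preparation means were tested against 0 with limma, with Benjamini-Hochberg adjustment over all 4892 features. Intervals and p-values use limma's moderated variance, which leans mostly on the other features (10.2 prior degrees of freedom against 1 of the gene itself). They are therefore not built from the SD printed beside them, and the 2 values of a gene alone would give far wider intervals where they differ much. Of the 60 genes, 24 could be tested (40%, against 32.4% of all genes), and 17 of them had a value on all 5 arrays. Of the 36 others, 1 had no value, 6 had a value on 1 array, 8 on 2, 11 on 3 and 10 on 4. Of the 21 with 3 or 4 values, 5 lay above 0 and 2 below it on every array that measured them. The rest of the 21 had values of both signs. No share over all untested genes is given beside these counts, so they are not read as a pattern.

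Arrays held values for between 5368 probes (A1) and 17463 probes (B1), and between 29 and 55 of the 60 genes had a value on an array. A ratio gives no level, so the presence of fibroblast transcripts could not be checked, only their difference between the lines. Of 12 fibroblast marker genes, 10 were measured and 7 tested. Of those, 4 fell in Erbb2-transfected cells (Col1a1, Col1a2, Fn1 and Sparc) and 0 rose, against 5.33% lower and 2.17% higher of all tested genes. The other 3 did not pass: Col3a1, with a mean log2 ratio of 0.51, vimentin (Vim), with 0.47, and S100a4, with -0.01. The markers thus did not move as 1 group. Of 18 marker genes of ciliated epithelium, 9 had a value, 3 were tested and 0 passed.

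The promoters of 4 dynein genes are shown because they belong to cilia and because all 4 were measured on 3 or more arrays, with values above 0 on each: Dnah6 and Dnah17, axonemal heavy chains, Dynlrb2, a roadblock light chain, and Dync2h1, the heavy chain of dynein-2. Of these, Dnah6 passed the test, Dync2h1 did not, and Dnah17 and Dynlrb2 could not be tested. Each is the RefSeq sequence of build GRCm38.p6, 5′ to 3′, from 250 bases before to 50 bases after the start that the promoter table uses. For Dnah6, Dnah17 and Dync2h1 the whole window lies inside the span of the gene in the RefSeq gene table, downstream of its outermost start. Capitals mark GTTGC or its reverse complement GCAAC, the half-site of the X-box, the element that RFX transcription factors bind in many ciliary genes.
Dnah6 promoter (chr6:73221582-73221881, minus strand): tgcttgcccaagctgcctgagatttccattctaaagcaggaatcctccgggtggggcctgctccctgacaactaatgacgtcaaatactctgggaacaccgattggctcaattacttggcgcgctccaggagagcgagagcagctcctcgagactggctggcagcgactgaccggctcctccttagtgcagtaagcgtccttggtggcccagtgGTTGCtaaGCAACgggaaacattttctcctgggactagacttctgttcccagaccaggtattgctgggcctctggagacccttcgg
Dnah17 promoter (chr11:118129170-118129469, minus strand): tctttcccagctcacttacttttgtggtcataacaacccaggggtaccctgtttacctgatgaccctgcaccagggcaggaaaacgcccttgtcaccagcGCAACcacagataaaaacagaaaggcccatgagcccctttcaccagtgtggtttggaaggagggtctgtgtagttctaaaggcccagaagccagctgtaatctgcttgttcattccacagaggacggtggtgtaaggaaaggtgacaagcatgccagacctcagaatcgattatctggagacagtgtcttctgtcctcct
Dynlrb2 promoter (chr8:116504765-116505064, plus strand): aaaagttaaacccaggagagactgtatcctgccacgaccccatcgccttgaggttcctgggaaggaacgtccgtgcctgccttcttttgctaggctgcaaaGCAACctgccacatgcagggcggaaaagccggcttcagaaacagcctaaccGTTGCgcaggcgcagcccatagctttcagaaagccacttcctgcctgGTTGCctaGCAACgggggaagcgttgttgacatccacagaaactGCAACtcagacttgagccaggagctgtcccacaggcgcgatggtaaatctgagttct
Dync2h1 promoter (chr9:7177009-7177308, minus strand): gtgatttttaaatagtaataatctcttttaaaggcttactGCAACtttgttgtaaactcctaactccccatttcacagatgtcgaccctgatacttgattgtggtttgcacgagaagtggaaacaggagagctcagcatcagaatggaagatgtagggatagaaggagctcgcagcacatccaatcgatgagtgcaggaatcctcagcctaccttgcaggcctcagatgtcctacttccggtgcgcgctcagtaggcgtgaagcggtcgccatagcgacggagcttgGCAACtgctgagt
The Dnah6 window held 2 half-sites, which form an inverted pair, GTTGC and GCAAC with 3 bases of any kind between. The Dynlrb2 window held 5 half-sites, 1 inverted pair of the same spacing among them. The Dync2h1 window held 2 half-sites and the Dnah17 window 1, and both held 0 inverted pairs. Searched on both strands, a half-site was present in 35.2% of all 32851 promoters of this length, and an inverted pair (GTTGC, then 3 or 4 bases of any kind, then GCAAC) in 0.399%. The spacing was chosen after the Dnah6 sequence had been seen, and the 4 genes shown were chosen by their ratios. The matches therefore cannot test a tie between the pair and the ratios. Of the 60 genes, 50 had at least 1 promoter in the table (58 promoters). In any of their promoters, 26 of these genes held a half-site and 2, Dnah6 and Dynlrb2, held an inverted pair. These counts are per gene and the shares above per promoter, so they are not like for like. A match describes the letters in this window and shows no binding.

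Most tubulin, kinesin and dynein transcripts had ratios near 0, and 2 of the 24 passed. Dnah6 rose 2.35-fold in Erbb2-transfected cells and Dynlt1b, a cytoplasmic dynein light chain, fell to 0.579 of its NIH3T3 level. Across all 3134 tested genes, limma called 7.5%, made up of 2.17% higher and 5.33% lower, and across all 4892 features it called 6.79%, made up of 2.25% higher and 4.54% lower. The share of 2 of 24 genes (1 higher, 1 lower) was near that background. A mean of 1 or more in size on the log2 scale was found for 1 of the 24, Dnah6, against 4.5% of all tested genes. The median log2 ratio was -0.05 for the 24 genes and -0.04 for all tested genes, with 11 of the 24 above 0 and 13 below. Ratios within 0.5 of 0 were found for 20 of the 24 (83.3%), against 79.5% of all tested genes. The median spread between preparations (SD, n = 2) was 0.21 in both sets.

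**Figure D1:**
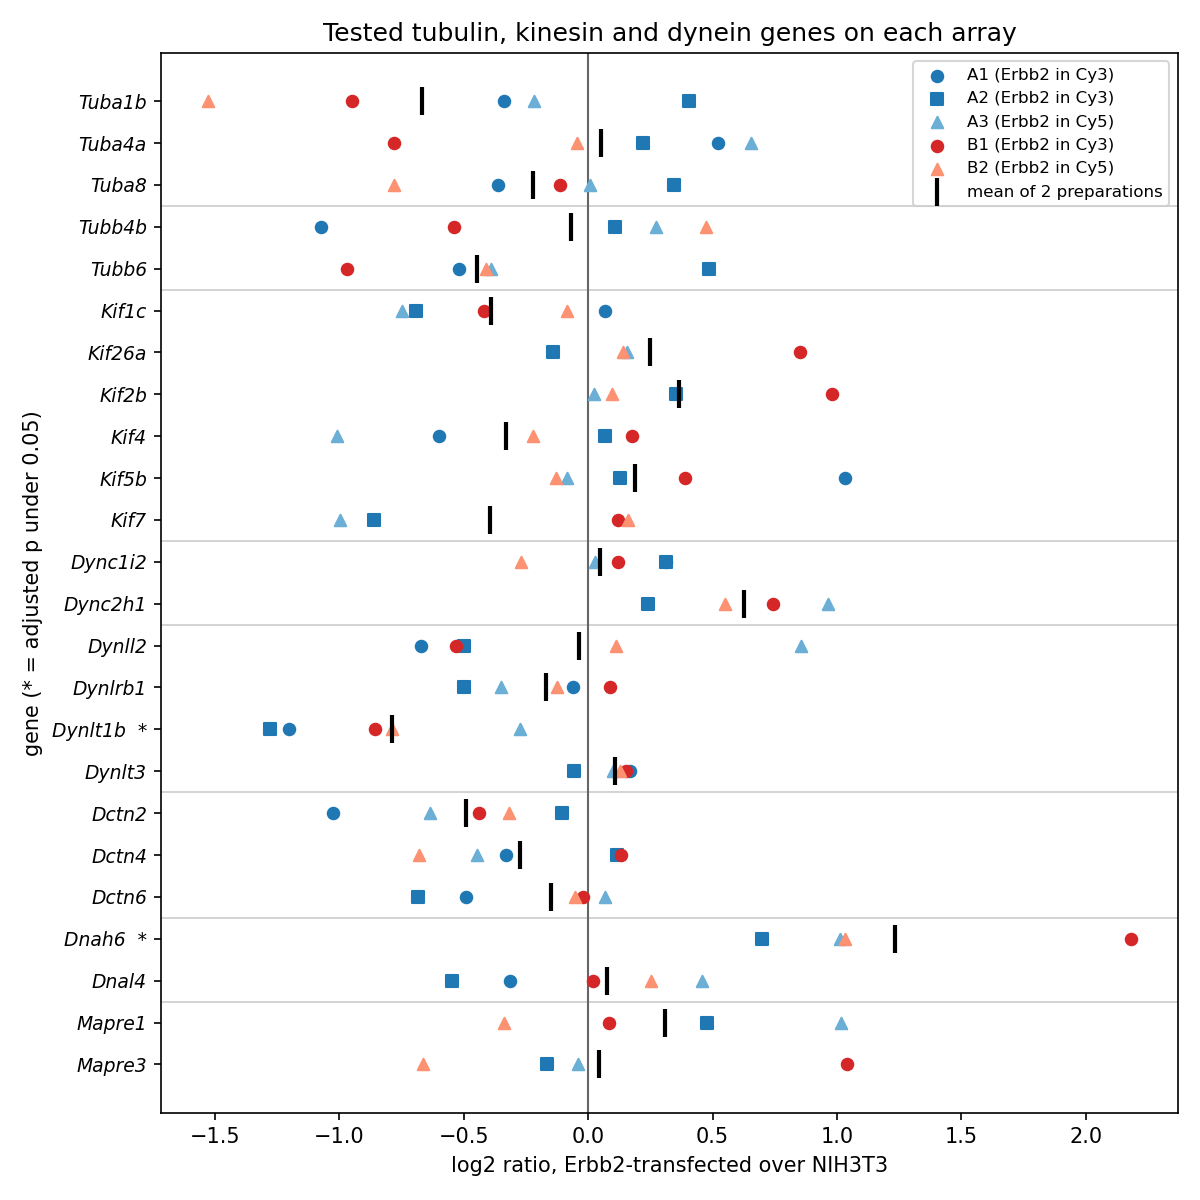
Log2 ratio of Erbb2-transfected over NIH3T3 cells (horizontal axis) of the 24 tested genes on each array, grouped by subfamily; blue symbols are preparation A, red ones preparation B, triangles arrays with Erbb2 cDNA in Cy5, black bars the mean of the 2 preparations. Dnah6 (0.70 to 2.18) lies right of 0 on 4 of 4 arrays and Dynlt1b (-1.28 to -0.27) left of 0 on 5 of 5, while most genes have points on both sides.

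The axonemal dyneins held the gene with the largest ratio of the 24. Dnah6, a heavy chain of the inner dynein arms of motile cilia, had log2 ratios of 0.70 on A2, 1.01 on A3, 2.18 on B1 and 1.03 on B2, with no value on A1. Every array lay above 0, B1 by most. The mean was 1.23 ± 0.53 (SD, n = 2 preparations; 95% interval 0.72 to 1.74; limma adjusted p = 0.00968). It was above 0 in either dye, at 1.02 with Erbb2 cDNA in Cy5 and 1.44 with it in Cy3. Without B1 it was 0.94 and did not pass (limma adjusted p = 0.0952).

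Dnal4, an axonemal dynein light chain, had log2 ratios of -0.32, -0.55 and 0.46 on A1, A2 and A3 and of 0.02 and 0.25 on B1 and B2. Preparation A straddled 0, both B arrays lay above it, and the mean of 0.07 ± 0.09 (SD, n = 2 preparations) did not pass (limma adjusted p = 0.867). Of the 8 axonemal genes, 7 had a value and 2 were tested. Dnah17, an outer arm heavy chain, could not be tested for want of values in both dyes of each preparation, but lay above 0 on the 3 arrays that measured it, at 1.58 (A1), 1.92 (A2) and 0.53 (B2). Dnah1, Dnah2, Dnah8 and Dnali1 had values of both signs, and Dnah5 had none. Of the marker list of ciliated epithelium, given beside Dnah6, 0 of 3 tested genes passed, with a median of 0.17. Foxj1, the transcription factor of motile cilia, had ratios of 0.28, 0.28, -0.15 and -0.06 on A1, A2, B1 and B2. Of 18 measured intraflagellar transport genes, 8 were tested and 0 passed, with a median of 0.03.

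The dynein light chains, shared adaptors of the motor, contained the gene that fell. Dynlt1b, the Tctex-type light chain that binds the dynein intermediate chain, had log2 ratios of -1.20, -1.28 and -0.27 on A1, A2 and A3 and of -0.86 and -0.79 on B1 and B2. All 5 arrays lay below 0, A3 nearest to it. The mean was -0.79 ± 0.05 (SD, n = 2 preparations; 95% interval -1.24 to -0.34; limma adjusted p = 0.0422). With Erbb2 cDNA in Cy5 the ratio was -0.53, and in Cy3 it was -1.05. The call changed with the arrays kept: it was lost without A3 (-1.03, limma adjusted p = 0.0595), without B1 (-0.77, adjusted p = 0.223) and without B2 (-0.81, adjusted p = 0.073). Without A3 the mean itself lay farther from 0. Each of these removals also left 1 preparation in a single dye orientation and changed the features tested (8074, 5198 and 5136, against 4892). The part of the array itself in the lost calls was not tested. One of its 2 probes had values on all 5 arrays, and the other only on B1, where the ratio was -0.70. The mouse annotation holds 4 neighbouring Dynlt1 genes of near-identical sequence, of which only Dynlt1b is on the array under its own symbol, so which copy the probe reports is uncertain.

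The other 3 tested light chains did not pass. Dynlrb1, a roadblock chain, had -0.06, -0.50 and -0.35 in preparation A and 0.09 and -0.13 in B, with a mean of -0.17 ± 0.21 (SD, n = 2 preparations). Dynll2, an LC8-type chain, had -0.67, -0.50, 0.86, -0.53 and 0.11 on A1, A2, A3, B1 and B2. Both arrays with Erbb2 cDNA in Cy5 lay above 0, and the 3 with it in Cy3 below, with means of 0.48 and -0.56. Its 2 probes differed: 1 had 0.86 on A3, -1.08 on B1 and 0.21 on B2. The other had no value on A3, and 0.018 and 0.014 on B1 and B2. The difference between the dyes in preparation B thus came from the first probe alone. Dynll2 was the 1 gene of the 24 with an unadjusted dye effect under 0.05 (limma adjusted p = 0.273), against 12.2% of all tested genes. Over all features limma called a dye effect for 0.143%, among them 0 of the 24 genes. Dynlt3, a Tctex-type chain, averaged 0.11, but its 2 probes opposed each other, with 0.70 and -0.36 on A1 and -0.46 and 0.71 on B2. Dynlrb2, untested for want of a B1 value, lay above 0 on A1 (0.10), A2 (0.31), A3 (0.74) and B2 (0.57).

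Cytoplasmic dynein chains did not pass, although Dync2h1 came near with all arrays kept. Its log2 ratios were 0.24 on A2, 0.96 on A3, 0.74 on B1 and 0.55 on B2, with no value on A1. All lay above 0, and the preparations differed little, at 0.60 in A and 0.65 in B. The mean of 0.62 ± 0.03 (SD, n = 2 preparations; 95% interval 0.18 to 1.07) did not pass (limma adjusted p = 0.097). It was 0.44 without A3 and 0.58 without B1. Dync1i2, the intermediate chain that links dynein-1 to dynactin, had 0.31, 0.31 and 0.03 in preparation A and 0.12 and -0.27 in B, and a mean of 0.05. Dync1h1, the dynein-1 heavy chain itself, was untested but above 0 wherever measured, at 0.42 (A1), 0.56 (A2), 0.38 (B1) and 0.13 (B2).

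The 3 tested dynactin subunits had means below 0 and did not pass. Dctn2, the dynamitin subunit of the shoulder, had log2 ratios of -1.02, -0.10 and -0.64 on A1, A2 and A3 and of -0.44 and -0.32 on B1 and B2. It was below 0 on every array and its mean was -0.49 ± 0.16 (SD, n = 2 preparations; 95% interval -0.94 to -0.04; limma adjusted p = 0.186). Dctn4, a subunit of the pointed end, had -0.33, 0.12 and -0.45 in preparation A and 0.13 and -0.68 in B. Signs were mixed in both preparations, and the mean was -0.28 (limma adjusted p = 0.465). Its probes disagreed, with -0.07 and -0.82 on A3, and the mean was -0.073 without B2, -0.48 without B1 and -0.16 for the 1 probe measured in both dyes of both preparations. Dctn6, another pointed-end subunit, averaged -0.15. Dctn1, the large p150 subunit that binds microtubules, was untested, with -0.60 and -0.28 on A1 and A2 and 0.11 and 0.75 on B1 and B2, so that the preparations lay on opposite sides of 0.

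Of 5 alpha- and gamma-tubulin genes 3 could be tested, all alpha-tubulins, and of 7 beta-tubulin genes 2, and 0 passed, with medians of -0.22 and -0.26. Tuba1b, a widely expressed alpha-tubulin, had log2 ratios of -0.34, 0.40 and -0.22 on A1, A2 and A3 and of -0.95 and -1.53 on B1 and B2. Both B arrays lay below all 3 A arrays. The mean of -0.67 ± 0.81 (SD, n = 2 preparations; 95% interval -1.25 to -0.08) did not pass (limma adjusted p = 0.165), the preparation means being -0.09 (A) and -1.24 (B). Tuba8 had -0.36, 0.35 and 0.01 in preparation A and -0.11 and -0.78 in B, with a mean of -0.22 ± 0.31. Tuba4a had 0.52, 0.22 and 0.65 in A and -0.78 and -0.04 in B. As for Tuba1b, its 2 B arrays lay below all 3 A arrays, and its mean was 0.05 ± 0.65 (SD, n = 2 preparations; limma adjusted p = 0.925).

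Tubb6 and Tubb4b were the tested beta-tubulins. Tubb6 had -0.52, 0.49 and -0.39 in preparation A and -0.97 and -0.41 in B; it lay above 0 on A2 alone. Its mean was -0.45 ± 0.34 (SD, n = 2 preparations; limma adjusted p = 0.244). Tubb4b had -1.07, 0.11 and 0.27 in A and -0.54 and 0.48 in B, so that its A1 and B1 values were negative and its mean was -0.07. Tubb2a, untested, was below 0 on A1 (-0.77), A2 (-0.10), B1 (-0.89) and B2 (-0.47), and Tubb4a above 0 on A3 (0.12), B1 (0.36) and B2 (0.80). Tubg1, the gamma-tubulin of the centrosome, ranged from -1.88 (A2) to 2.25 (A1), which are repeats of 1 preparation in 1 dye orientation. Tubulin isotypes are close in sequence, and spotted cDNA probes may not part them, so a value here may hold signal of a sister isotype.

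Between these repeats, A1 and A2, the tubulins differed as follows. In 6 of 8 tubulin genes A2 lay above A1 (75%), with a median absolute difference of 0.73. Among the 21 others of the 60 genes with both values this was 9 (42.9%) with a median absolute difference of 0.32, and among all 3204 genes it was 1898 (59.2%) with 0.43. No test was made of this pattern.

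**Figure D2:**
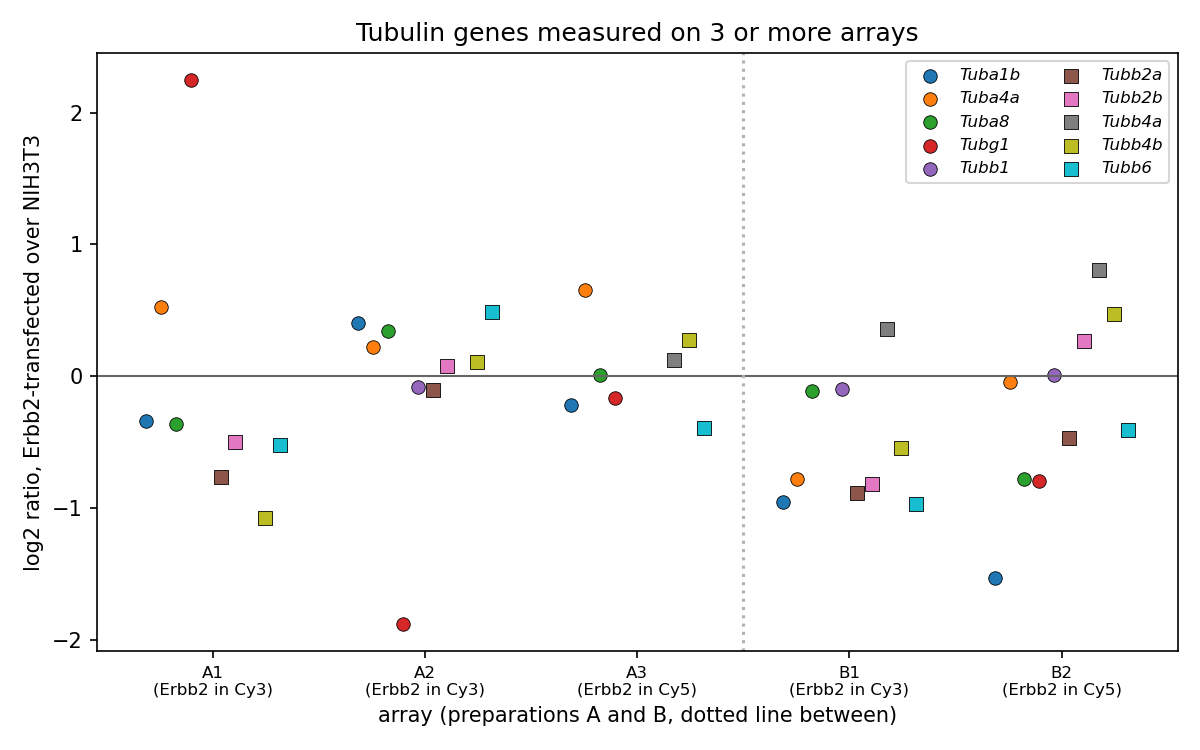
Log2 ratio of Erbb2-transfected over NIH3T3 cells (vertical axis) for tubulin genes measured on 3 or more arrays; each symbol is 1 gene on 1 array, and the dotted line parts preparations A and B. Tubg1 spans 2.25 (A1) to -1.88 (A2), and Tuba1b reaches -1.53 on B2.

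Kinesin heavy chains, plus-end motors for the most part, numbered 18, of which 6 were tested and 0 passed, with a median of -0.07. Kif7, a kinesin at the tip of the cilium that acts in Hedgehog signalling, had log2 ratios of -0.86 on A2, -0.997 on A3, 0.12 on B1 and 0.16 on B2, with no value on A1. Preparation A was low and preparation B near 0, without overlap. The mean was -0.39 ± 0.76 (SD, n = 2 preparations; limma adjusted p = 0.401). Kif1c, a vesicle motor of the kinesin-3 class, had 0.07, -0.69 and -0.75 in preparation A and -0.42 and -0.08 in B. It was below 0 on 4 of 5 arrays, and its mean was -0.39 ± 0.20 (limma adjusted p = 0.295). Kif5b, the ubiquitous heavy chain of kinesin-1, averaged 0.19, with 1.03 on A1 as its highest array. Kif4, a chromokinesin of the spindle, averaged -0.33, Kif26a 0.25 and Kif2b, of the microtubule-depolymerising kinesin-13 class, 0.36, the last 2 without A1 values. Among untested chains Kif2a, of that same class, lay above 0 on A1 (1.11), A2 (0.34) and B1 (0.01), and Kif9 below it on A3 (-0.02), B1 (-0.37) and B2 (-0.67).

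Kinesin light chains, which tie kinesin-1 to cargo, could not be tested. Klc1 had 1.94, 1.82 and 0.81 on A1, A2 and B1 and -0.32 on B2, from 2 probes, of which 1 alone covered A1 and A2, the other alone B1, and both B2, with -0.14 and -0.50 there. It was high on the 3 arrays with Erbb2 cDNA in Cy3 and below 0 on the 1 with it in Cy5. Of the end-binding proteins, Mapre1 (EB1) had 0.48, 1.02, 0.08 and -0.34 on A2, A3, B1 and B2, and Mapre3 had -0.16, -0.04, 1.04 and -0.66 on the same arrays, without A1 values. Averaged over its probes, Mapre1 was high in preparation A and low in B, with means of 0.75 and -0.13. Its overall mean was 0.31 ± 0.62 (SD, n = 2 preparations; limma adjusted p = 0.496). Its 4 probes disagreed: 1 had -0.47 on A2 and 0.41 on B1. Others had 0.87 and 1.03 on A2 and -0.01 and -0.15 on B1, and the last, measured on B1 alone, had 0.09. Mapre3 averaged 0.04, and its B1 and B2 values lay on opposite sides of 0.

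The preparations were also compared with each other. In limma fits on 5 arrays, the difference of preparation A from B had an unadjusted p under 0.05 for 3 of the 24 genes, Tuba1b, Kif7 and Tuba4a, against 7.12% of all tested genes. After adjustment 0 of the 24 passed, their limma adjusted p being 0.609 for Tuba1b and 0.67 for the other two, and 0.0204% of all features were called. Unadjusted p-values of Erbb2-transfected against NIH3T3 cells under 0.05 were found for 5 of the 24 genes, against 22.8% of all tested genes. Values of 1 sign on every array measured were found for 5 of 24, Kif2b, Dync2h1, Dynlt1b, Dctn2 and Dnah6, against 24.8% of all tested genes.

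**Figure D3:**
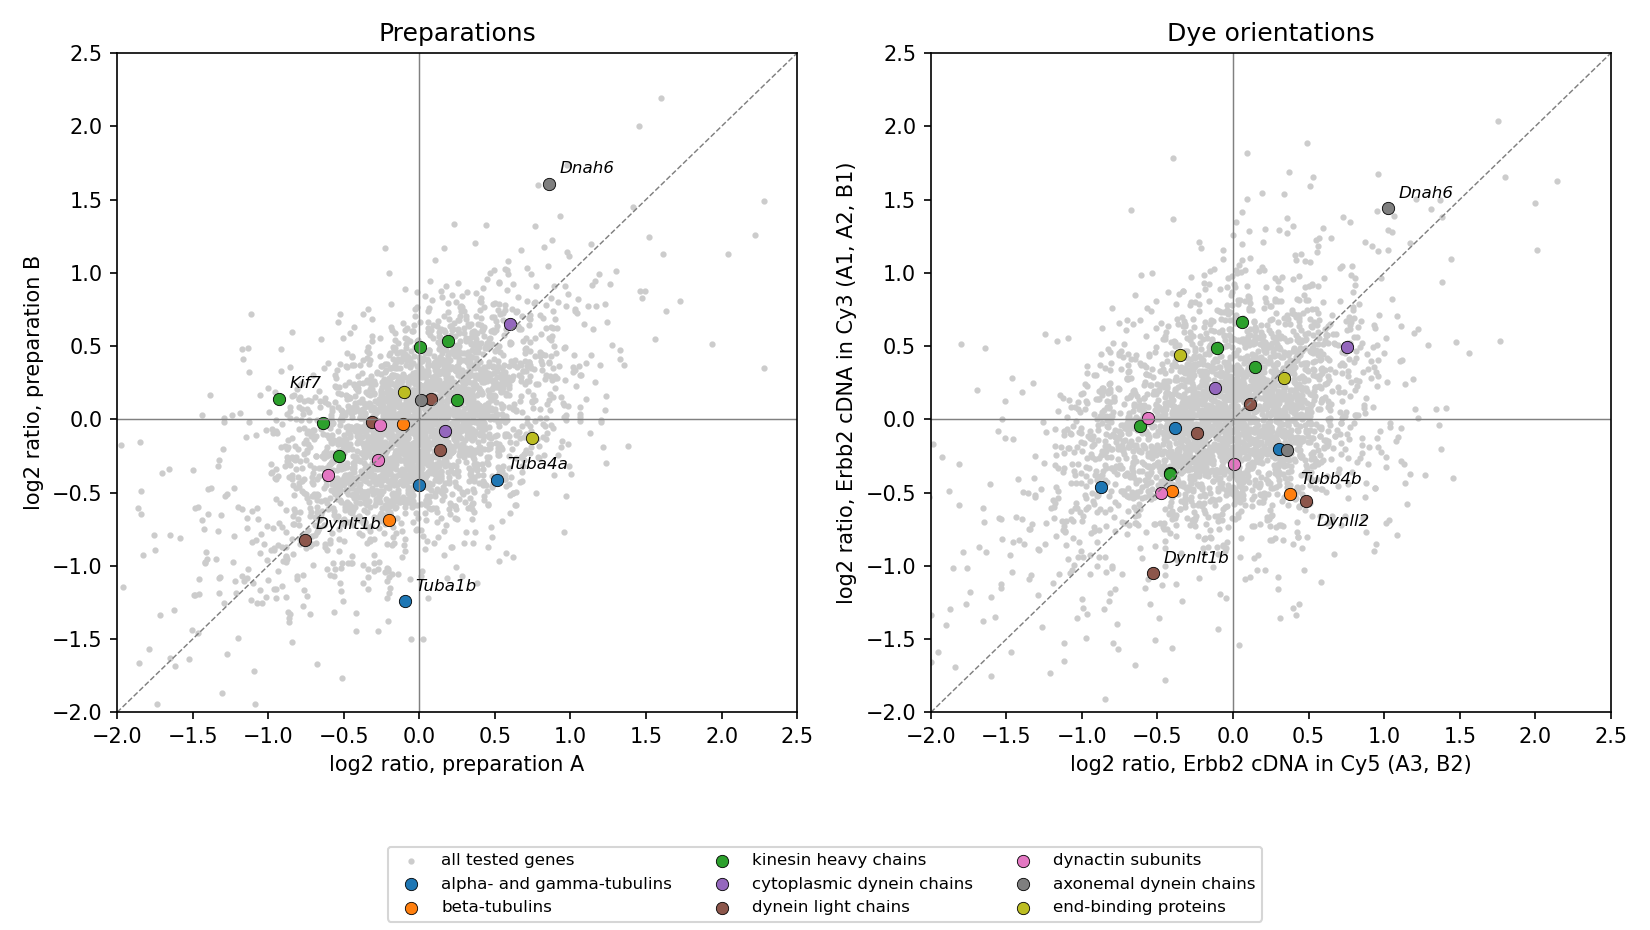
Mean log2 ratio of the 24 genes in preparation A against preparation B (left) and with Erbb2 cDNA in Cy5 against Cy3 (right), with all tested genes in grey (34 and 40 of them fall outside the axes). Dnah6 is high and Dynlt1b low on both plots, Tuba1b and Kif7 lie off the diagonal on the left, and Dynll2 lies off it on the right.

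Genes that act with microtubules were counted from lists chosen with earlier results of these data known. Of tubulin folding genes 9 were tested, of tubulin-modifying and severing enzymes 7, of dynein regulators 6 and of gamma-tubulin ring complex and centrosome genes 5, and 0 of each passed, with medians of -0.08, -0.25, -0.20 and 0.03. Of 16 tested microtubule-associated genes, 1 was called lower, Dst (dystonin, a cytoskeletal linker; mean -1.18, limma adjusted p = 0.0109), but its ratios were 0.83, 1.42 and -2.81 in preparation A and -0.04 and -3.01 in B, low on the arrays with Erbb2 cDNA in Cy5 and near or above 0 otherwise (dye effect, limma adjusted p = 0.00535). Of 20 tested proliferation genes 1 rose, Tk1, which makes thymidine nucleotides for DNA synthesis (1.05 ± 0.72, SD, n = 2 preparations; limma adjusted p = 0.0307). The medians of those 20, which include Tubb5 (0.04 in A, -0.64 in B), were 0.68 in preparation A and -0.32 in B. Of the tested tubulins, Tuba1b, Tuba4a, Tuba8 and Tubb6 were likewise higher in A than in B. Tubb4b was not (-0.11 in A, -0.03 in B), and neither was the spindle kinesin Kif4 (-0.64 in A, -0.02 in B). The part of proliferation in the tubulin values was not tested.

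**Figure D4:**
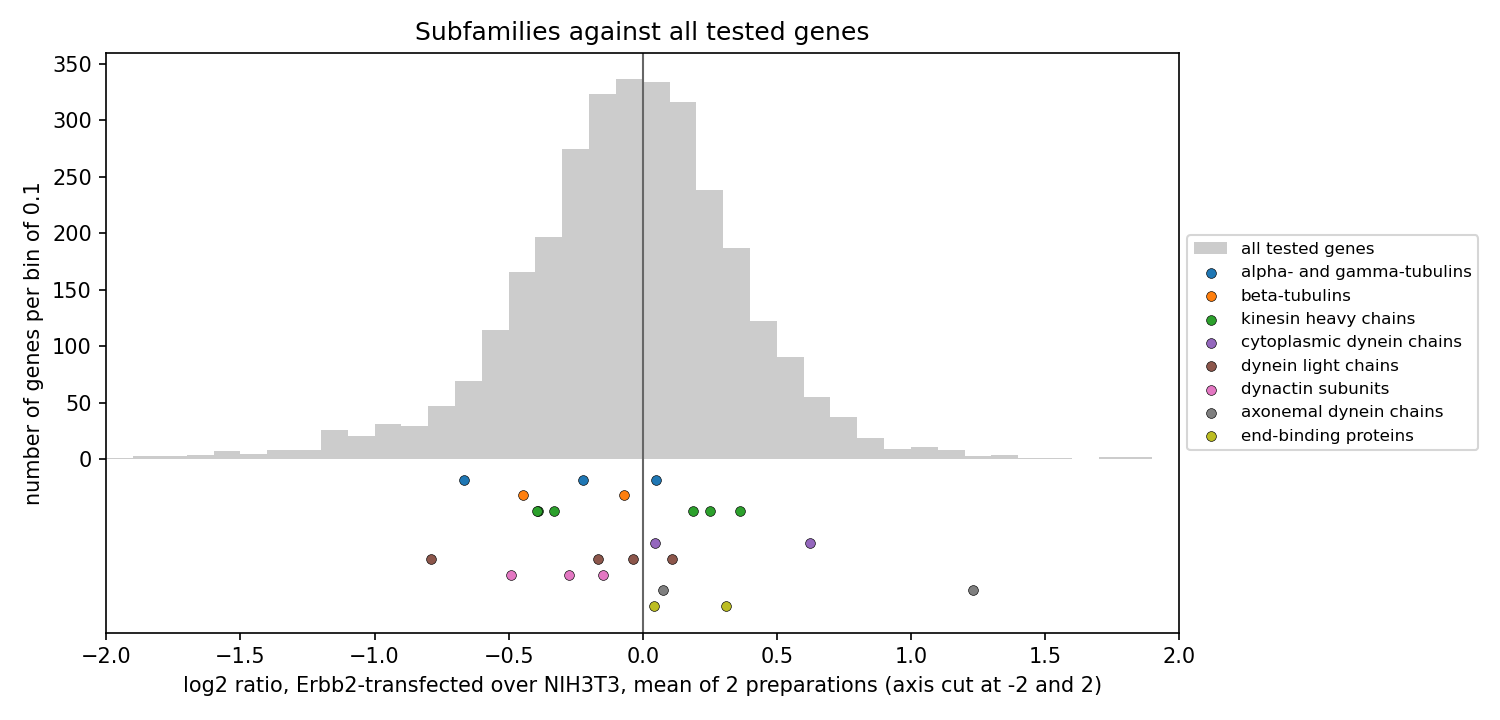
Histogram of the mean log2 ratio of all tested genes (grey, 23 fall outside the axis) with the 24 tested genes as dots beneath it, 1 row per subfamily in the legend's order; the vertical axis counts genes per bin of 0.1. Of the dots, 20 lie within 0.5 of 0, and Dnah6 at 1.23 is farthest right.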

How the data were processed

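RNA of 2 cell lines was compared on 5 two-colour cDNA arrays. Per the labels, the authors scanned on a GenePix instrument, took background-subtracted mean intensities and scaled each array to a median ratio of 1. What the authors deposited are log2 dye ratios, judging by the values: 11.3% (B1) to 49.8% (A2) of them matched log2 of a quotient of integers no larger than 300, offset by 1 constant per array (tolerance 6e-07), against at most 1.87% with that offset moved. As deposited, arrays of opposite dye orientation correlated between -0.54 and -0.17, so the arrays with Erbb2 cDNA in Cy3 were turned. The labels do not say why some values are empty.

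Probes of 1 symbol were averaged to a gene, and other probes kept as features. Of 20205 probes, 11723 had 1 symbol, 806 several and 7676 none. R 4.3.3 with limma 3.58.1 (lmFit, eBayes) tested the 4892 features (18151 before the filter) with values in both dyes of both preparations. Dye and preparation effects were fitted on the 5 arrays. The call was an adjusted p under 0.05. Figures used Python 3.11.15 and matplotlib 3.10.9. The fit of the preparation means was run on simulated data with independent noise of equal size for every feature and no dye or preparation effect. It was required only to recover the largest effects, with the right sign for those called. The dye and preparation fits were not part of that simulation.

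Genes and lists were chosen with earlier results of these data known. By rule, array values are given for each gene past the threshold and for the 2 tested genes of each subfamily with the largest absolute mean. The same holds for untested genes of 1 sign on 3 or more arrays. Outside this rule, values on arrays are also given for Tuba4a, Dynll2, Dynlt3, Dctn1, Tubg1, Klc1, Kif5b and Foxj1. Most of these were shown for a split between preparations, dyes, probes or repeats, so no fixed rule chose them. Of each list, at most 4 genes past the threshold were named. Col3a1, Vim, S100a4, Foxj1 and Tubb5, which did not pass or were not tested, were named besides. Other normalizations, filters, probe rules, thresholds and each array left out were tried. Promoters are from RefSeq, build GRCm38.p6. The other genes of the arrays were not analysed here beyond the background counts.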

Additional observations from a re-analysis of the deposited data

How the results depend on the processing

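Direction and call of Dnah6 held in 12 of 15 alternatives and those of Dynlt1b in 12 of 17, with means of 0.94 to 1.52 and -1.03 to -0.77. Both calls were lost with arrays scaled to equal spread (limma adjusted p 0.0739 and 0.093) and where values in each preparation were enough whatever the dye (0.071 and 0.159). The number of these genes called, 2 of 24, was 0 of 24 with scaling and 0 of 47 whatever the dye. It was 1 of 17 with values required on all 5 arrays, where Dnah6 had none on A1. When single arrays were left out it was 0 to 2, with 17 to 38 genes tested. Dync2h1 passed only at a threshold of 0.1. Over the same 24 genes, the median of -0.05 was -0.14 with a plain mean of arrays and -0.034 after centring again. It was -0.084 after scaling and -0.10 after quantile normalization. With all 5 arrays required it was -0.17 (17 genes), and whatever the dye 0.042 (47 genes). It was -0.10 with each probe apart and -0.078 with the fullest probe (23 genes). Without single arrays it ranged from -0.22 to -0.0015 (17 to 38 genes). Features called numbered 332 of 4892, against 548 after centring again, 112 after scaling and 548 at a threshold of 0.1, of as many tested. They were 149 of 11817 whatever the dye and 544 of 5014 with each probe apart. Without single arrays they numbered 198 to 498, with 2920 to 8074 tested. Averaging only probes measured in both dyes of both preparations, chosen after seeing the data, gave 564 features and a median of -0.10. Dye effects were called for 7 features, against 12 at 0.1, 4 with all 5 arrays and 1 to 27 without single arrays; preparation effects for 1, against 4 at 0.1 and 1 to 25. Signs turned for Tuba4a (-0.022 scaled, -0.048 quantile) and Dynlt3 (-0.078 with each probe apart, the fullest probe or the probes of all orientations). Without single arrays, ranges crossed 0 for Tubb4b (-0.32 to 0.18), Dnal4 (-0.15 to 0.13), Tuba4a (-0.13 to 0.23), Dync1i2 (-0.051 to 0.14), Dynll2 (-0.40 to 0.12) and Mapre3 (-0.38 to 0.47). Settings that changed the filter, the probes or the arrays also changed which genes and features were tested, so their medians and counts are not like for like. Requiring all 5 arrays, or accepting values whatever the dye, left the ratio of each of these genes kept unchanged. The median moved there with the set of genes. The causes of the other shifts were not tested. Each value is a ratio within an array, so the cell lines were paired on every array and no further pairing was fitted. Signal over background is not given, so what it limits was not analysed here.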

Other observations

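A kinesin outside the symbol rule passed the test. Kifc3, a minus-end-directed kinesin-14, had log2 ratios of 0.29, 0.75 and 2.43 on A1, A2 and A3 and of 0.55 and 1.11 on B1 and B2. All 5 arrays lay above 0, and both arrays with Erbb2 cDNA in Cy5 lay above the 3 with it in Cy3. Its mean was 1.15 ± 0.46 (SD, n = 2 preparations; limma adjusted p = 0.0112), and it was named after its values were seen. Of the genes left out by the rule, Kif23, a spindle midzone kinesin, had 0.73 (limma adjusted p = 0.0748), Kif2c -0.11 and Tubb5 -0.30, and these 3 did not pass.

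Probes that name several genes, and so could not be assigned, included one for Dnah7b, Dnah7a and Slc39a10, with 0.88 on A2 and 1.32 on B1. Another axonemal one, for Dnal1 and Pnma1, had -0.44 on B1 and 0.31 on B2. A probe for Tmem181b-ps, Tmem181a and Dynlt1b had a value on B1 alone, -0.28. One for Tuba1c and Npm1 had 0.06, 0.43 and 0.41 in preparation A and -1.29 and 0.44 in B.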
